A study of Rattus norvegicus with 12 samples.

Results

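The integrated stress response genes examined here were Atf4, the transcription factor that carries the response, and 9 genes known to act with it or downstream of it: Atf5, Nupr1, Ddit3, Ppp1r15a, Trib3, Asns, Chac1, Ddit4 and Sesn2. They were taken by gene name from a table of hepatic RPKM values (reads scaled to transcript length and to the mapped reads of the library) that lists 34391 transcripts of 24355 gene names. Of the 10 genes, 9 were found under their own symbol, and Sesn2 was found as RGD1566319, an older symbol that RefSeq gives for it. Where a gene had several transcripts, the transcript with the highest mean RPKM over all livers stood for the gene. All 10 were above 0 in at least 1 liver and so were among the 21718 transcripts of 15270 gene names that were tested. Over the 12 livers 8 of them averaged 1 RPKM or more, while Asns and Chac1 averaged less.

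The livers came from 12 female rats of the inbred alcohol-preferring strain iP10a, bred for a preference for alcohol. All rats had food and tap water at will. For 23 weeks the 6 EtOH animals could also drink from bottles holding 10, 20 and 30% ethanol (v/v), while the 6 control animals received no ethanol. At collection all rats were 38 weeks old, except EtOH animal 6, which was 39 weeks old. Intake was by free choice, so the dose was not set, and by the study's methods no alcohol could be detected in the blood at sacrifice. Poly(A) RNA from whole liver was sequenced, 1 library per rat.

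In the integrated stress response, kinases that sense amino acid shortage, endoplasmic reticulum stress, heme shortage or viral RNA phosphorylate the translation initiation factor eIF2. General protein synthesis then slows, while Atf4 mRNA is translated more because of short upstream reading frames, so ATF4 protein can change without a change in its mRNA. ATF4, often paired with a C/EBP protein, turns on genes for amino acid supply and for feedback and cell death, and in liver this program is known from protein restriction and from endoplasmic reticulum stress.

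Between 2610238 and 4318141 reads per control liver and between 3945593 and 6030028 reads per EtOH liver could be recovered from the RPKM values, a difference between groups (exact permutation test, p = 0.0108). Hepatocyte markers were present in every liver, with Alb, which encodes albumin, between 57999 and 92323 RPKM. The summed RPKM of the 5 matched hepatocyte markers (of 6) ranged from 67994 to 96266 in control livers and from 76786 to 103330 in EtOH livers (exact permutation p = 0.121). Alb made up most of this sum, with means of 70352 of 81015 RPKM in control and 79085 of 89998 in EtOH livers. Of the other hepatocyte markers, Cps1 was called higher in EtOH livers (log2 fold change 0.58, limma adjusted p = 0.022). Ttr, Tat and Serpina1 were not called. Summed markers of other cell types were higher in EtOH livers for Kupffer cells (4 of 6 markers matched, 67.1 to 108 against 95.4 to 126 RPKM), endothelial cells (3 of 5 matched, 24.5 to 31.3 against 27.8 to 38.6) and stellate cells (5 of 5 matched, 7.002 to 10.3 against 9.30 to 13.7), each with an adjusted p of 0.039 over the 6 lists by an exact permutation test. Markers of cholangiocytes (3 of 4 matched, 4.27 to 8.16 against 3.69 to 7.67 RPKM) and lymphocytes (4 of 4 matched, 0.864 to 5.88 against 2.89 to 6.74) had adjusted p-values of 0.812 and 0.158 by the same test, and the B cell marker Cd79a was at 0 in all control livers. Single genes also made up most of the Kupffer and endothelial sums. Clec4f had means of 66.4 of 87.1 RPKM in control and 82.4 of 110 in EtOH livers. Lyve1 had means of 17.2 of 26.9 and 19.8 of 32.0 RPKM. By limma Clec4f, Cd163 and the endothelial marker Cdh5 were called higher, while Cd68, Csf1r, Pecam1, Lyve1 and the stellate markers were not called. The part of depth and of these cell types in the results that follow was not tested.

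ATF4 and its C/EBP partners are known to bind a composite element, spelled TGATGNAA or TTNCATCA on the other strand, where N is any base. Promoter windows of 300 bases, from 250 before to 50 after the transcription start, were read from RefSeq for assembly GRCr8 for all 10 genes. The element was in 1332 of 33469 such windows (3.98%) and in those of Nupr1, Chac1 and Trib3. The cAMP response element TGACGTCA, which reads the same on both strands, was in 612 windows (1.83%) and, among the 10 genes, in that of Ppp1r15a. The ER stress response element, CCAAT and CCACG with 9 bases of any kind between them, searched on both strands, was in 22 windows (0.0657%) and in 0 of the 10. The 4 stretches of 100 bases that hold a match are shown because Nupr1 rose in EtOH livers while the other genes with a match did not pass the test. Among the 10 windows no match of one motif overlapped a match of another. They are written 5′ to 3′ on the strand of the gene, with the matched letters in capitals, and lie at chr1:190645903-190646002 (minus strand) for Nupr1, chr3:126795918-126796017 (plus strand) for Chac1, chr3:161275534-161275633 (minus strand) for Trib3 and chr1:105139609-105139708 (minus strand) for Ppp1r15a.
Nupr1: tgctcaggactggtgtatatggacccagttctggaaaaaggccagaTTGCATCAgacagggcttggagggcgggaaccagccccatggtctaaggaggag
Chac1: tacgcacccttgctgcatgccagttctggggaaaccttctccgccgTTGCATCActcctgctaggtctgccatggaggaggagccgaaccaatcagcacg
Trib3: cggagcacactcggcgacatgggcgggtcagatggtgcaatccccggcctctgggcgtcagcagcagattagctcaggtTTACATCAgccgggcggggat
Ppp1r15a: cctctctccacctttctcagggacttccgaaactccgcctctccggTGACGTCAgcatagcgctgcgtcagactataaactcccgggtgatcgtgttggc
The first capital lay 55 bases before the start of Nupr1, 167 before that of Chac1, 21 before that of Trib3 and 66 before that of Ppp1r15a. A match describes the letters of the window and does not show that a factor binds there.

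Of the 10 genes, Atf4 fell and Nupr1 rose in EtOH livers, and the other 8 did not pass the test. The test was limma on quantile-normalized log2(RPKM + 0.5) over all 21718 transcripts, called at a Benjamini-Hochberg adjusted p under 0.05. Over all transcripts it called 1.29% lower and 1.13% higher in EtOH livers. Of the 10 log2 fold changes 8 were below 0, against 50.0% of all transcripts tested. Their median was -0.26, against 0.00019 over all tested and 0.0078 over those averaging 1 RPKM or more. Quantile normalization gives all livers the same distribution, and without it the last median was -0.08. The 10 genes were chosen with earlier results of these data known, so this contrast is a description. Of the transcripts averaging 1 RPKM or more, which include 8 of the 10 genes, 4.47% were called. An unadjusted p under 0.05 was found for 5 of the 10 genes and for 15.5% of all transcripts. The RPKM values of EtOH and control livers did not overlap for 2 of the 10, Atf4 and Atf5, in both with EtOH livers lower, against 3.10% of all transcripts in either direction, 2.43% with EtOH livers lower and 0.677% with EtOH livers higher. Which genes separated depended on the scale. After quantile normalization Atf4 and Nupr1 did not overlap and Atf5 did, against 2.59% of all transcripts. These are whole livers, so fewer cells of a type and less RNA per cell cannot be told apart.

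**Figure D1:**
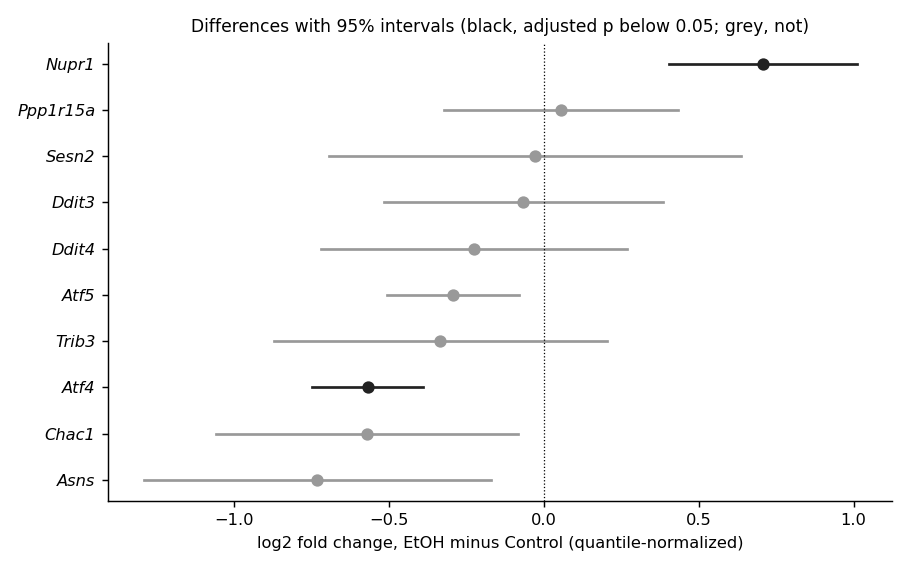
The log2 fold change of each of the 10 genes, EtOH minus control, is plotted with its 95% confidence interval from limma over 12 livers, on the scale of quantile-normalized log2(RPKM + 0.5). The interval of Atf4 runs from -0.75 to -0.39 and that of Nupr1 from 0.40 to 1.01.

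Atf4, listed on chromosome 7 at 118536972 to 118538993, was between 92.1 and 129 RPKM in control livers, with a median of 101, and between 59.3 and 68.2 in EtOH livers, with a median of 64.2. All 6 EtOH livers lay below the lowest control liver. The mean was 107 ± 15.7 RPKM in control livers and 64.3 ± 3.10 in EtOH livers (SD, n = 6 each), 1.66 times lower, and the log2 fold change was -0.57 (SE 0.08, limma adjusted p = 0.0051). The spread was narrower in EtOH livers, where the SD was 4.82% of the mean against 14.7% in control livers. The values rest on 391 to 613 reads per liver. A further Atf4 transcript was listed at 0 in all 12 livers. Atf4 is among the genes the study itself listed as altered in these livers, so its direction is not independent evidence.

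Atf5, a related bZIP factor whose mRNA is also controlled through upstream reading frames and which is abundant in liver, was the highest of the 10 genes in control livers. It is listed on chromosome 1 at 95284085 to 95288174. Control livers ranged from 183 to 286 RPKM, with a median of 208, and EtOH livers from 140 to 175, with a median of 162. In RPKM the groups did not overlap, with means of 217 ± 40.0 and 161 ± 12.4 RPKM (SD, n = 6 each), 1.35 times lower in EtOH livers. After quantile normalization they did, from 7.40 to 7.97 in control and from 7.29 to 7.56 in EtOH livers on the log2 scale. The log2 fold change of -0.29 (SE 0.10) had a limma adjusted p of 0.15. Without normalization between livers the log2 fold change was -0.42 and the adjusted p 0.049. The listed positions of Atf5 share 164 bases with LOC100360621, whose mean was 0.43 RPKM.

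Nupr1 encodes a small stress-induced nuclear protein that is induced by ATF4 in many cells. It is listed on chromosome 1 at 185770311 to 185772313. Control livers ranged from 106 to 176 RPKM, with a median of 136, and EtOH livers from 166 to 279, with a median of 190. In 5 of 6 control livers the level was below that of every EtOH liver, and control animal 3, at 176 RPKM, was the exception. After quantile normalization the groups did not overlap, with control livers up to 7.21 and EtOH livers from 7.44 on the log2 scale. The means were 136 ± 25.0 and 203 ± 45.0 RPKM (SD, n = 6 each), 49.6% higher in EtOH livers, with a log2 fold change of 0.71 (SE 0.14, limma adjusted p = 0.024). This call was lost without control animal 2 (adjusted p = 0.057), control animal 4 (0.051) or EtOH animal 5 (0.053), without normalization between livers (log2 fold change 0.57, adjusted p = 0.052) and in a pooled test on square-root values (adjusted p = 0.064).

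The quantile step moved both values upward. Without it the log2 fold change of Atf4 was -0.72 and that of Nupr1 0.57, and the median of transcripts averaging 1 RPKM or more was -0.08 in place of 0.0078. Over all transcripts 281 were called lower and 245 higher with the quantile step, 648 lower and 126 higher without it, and 337 lower and 194 higher after median scaling. Atf4 was lower and Nupr1 higher under all 3 scalings.

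**Figure D2:**
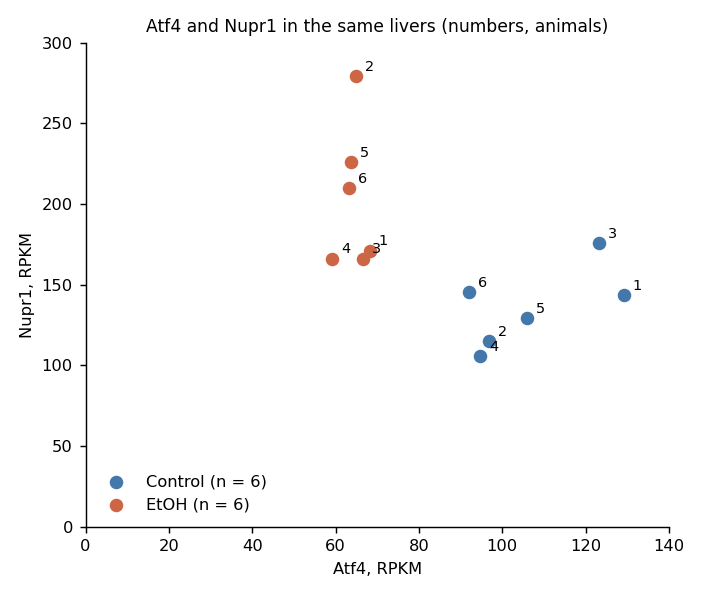
Nupr1 RPKM is plotted against Atf4 RPKM for each of the 12 livers, labelled by animal number and coloured by group. The 6 EtOH livers have Atf4 values from 59.3 to 68.2 and Nupr1 values from 166 to 279, and the 6 control livers have Atf4 values from 92.1 to 129 and Nupr1 values from 106 to 176.

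With Atf4 lower and Nupr1 higher, the RPKM of Nupr1 divided by that of Atf4 was 1.27 ± 0.189 in control livers, from 1.11 to 1.58, and 3.16 ± 0.706 in EtOH livers, from 2.49 to 4.31 (SD, n = 6 each). The ratio was formed after the separate values of both genes were known and is given as a description. After the group means were removed, Pearson's r between the levels of Atf4 and Nupr1 was 0.39 over 12 livers (permutation p = 0.21, adjusted p = 0.78 over 45 pairs) and Spearman's rho was 0.43 (permutation p = 0.18, adjusted p = 0.80). Without the 2 livers farthest from the median Atf4 level, r was 0.54.

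Ddit3 and Ppp1r15a act late in the response. Ddit3 encodes CHOP, a C/EBP-like factor linked to cell death, and Ppp1r15a encodes GADD34, the inducible phosphatase subunit that removes phosphate from eIF2. Ddit3, listed on chromosome 7 at 67247749 to 67252571, ranged from 2.94 to 6.51 RPKM in control livers (median 4.78) and from 2.95 to 5.94 in EtOH livers (median 3.95). The groups overlapped almost fully, and the log2 fold change was -0.07 (SE 0.21, 95% interval -0.52 to 0.38, limma adjusted p = 0.91). When all Ddit3 transcripts were summed, the value was 0.076. The listed positions of Ddit3 share 62 bases with Mars, a tRNA synthetase gene that fell, and reads in those bases cannot be told apart where counting does not use strand. Ppp1r15a, listed on chromosome 1 at 95994027 to 95997080, ranged from 2.02 to 4.21 RPKM (median 3.01) and from 2.42 to 3.43 (median 3.06), with means of 2.99 ± 0.750 and 2.98 ± 0.428 (SD, n = 6 each). Its log2 fold change was 0.06 (SE 0.17, 95% interval -0.32 to 0.43, limma adjusted p = 0.91).

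Trib3 encodes a pseudokinase that binds ATF4 and AKT and dampens both. It is listed on chromosome 3 at 142664657 to 142670135. Control livers ranged from 0.861 to 2.30 RPKM (median 1.76) and EtOH livers from 0.844 to 1.93 (median 1.07). The ranges overlapped, with means of 1.69 ± 0.563 and 1.24 ± 0.456 (SD, n = 6 each), and the log2 fold change was -0.33 (SE 0.25, limma adjusted p = 0.59). These values rest on 5 to 16 reads per liver.

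Asns, which encodes asparagine synthetase and is a standard readout of ATF4 activity, was the lowest of the 10 genes. It is listed on chromosome 4 at 32758607 to 32776554. Control livers ranged from 0.0952 to 1.47 RPKM (median 0.766) and EtOH livers from 0.135 to 0.286 (median 0.191). In 4 control livers the level was above every EtOH liver, and control animal 6 had the lowest value of all 12. The means were 0.709 ± 0.502 and 0.194 ± 0.0529 RPKM (SD, n = 6 each), and the log2 fold change was -0.73 (SE 0.26, 95% interval -1.29 to -0.17, limma adjusted p = 0.18). Without control animal 6 it was -0.92 and the adjusted p was 0.049, and with a pseudocount of 0.1 it was -1.26 (adjusted p = 0.23). Only 33 reads in all control livers and 13 in all EtOH livers lie behind these values, 1 to 11 per liver, with 1 read worth 0.067 to 0.15 RPKM.

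Chac1 encodes an enzyme that breaks down glutathione and is induced through ATF4. It is listed on chromosome 3 at 105870108 to 105873318. Control livers ranged from 0.754 to 1.53 RPKM (median 1.18) and EtOH livers from 0.141 to 1.08 (median 0.744). In 3 EtOH livers the level was below every control liver, and the means were 1.15 ± 0.276 and 0.661 ± 0.340 (SD, n = 6 each). The log2 fold change was -0.57 (SE 0.22, 95% interval -1.06 to -0.08, and -0.89 with a pseudocount of 0.1), with a limma adjusted p of 0.23, and 1 to 8 reads per liver lie behind it. The unadjusted intervals of Asns and Chac1 thus lay below 0, but neither gene passed the correction over all transcripts.

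Ddit4 and Sesn2 encode REDD1 and sestrin 2, stress-induced inhibitors of mTORC1 signalling. Ddit4, listed on chromosome 20 at 27252608 to 27254371, ranged from 1.48 to 4.43 RPKM in control livers (median 3.69) and from 1.97 to 3.50 in EtOH livers (median 2.45). Control animal 1 was the lowest of all 12 livers, and 4 control livers were above every EtOH liver. The log2 fold change was -0.23 (SE 0.23, 95% interval -0.72 to 0.27, limma adjusted p = 0.65). It was -0.41 without control animal 1 (adjusted p = 0.23) and -0.14 without control animal 2 (adjusted p = 0.80). Sesn2, listed on chromosome 5 at 152639951 to 152651043, ranged from 1.59 to 4.80 RPKM in control livers (median 3.46) and from 1.22 to 4.35 in EtOH livers (median 2.97). These ranges overlapped almost fully, and the log2 fold change was -0.03 (SE 0.31, 95% interval -0.69 to 0.64, limma adjusted p = 0.97).

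**Figure D3:**
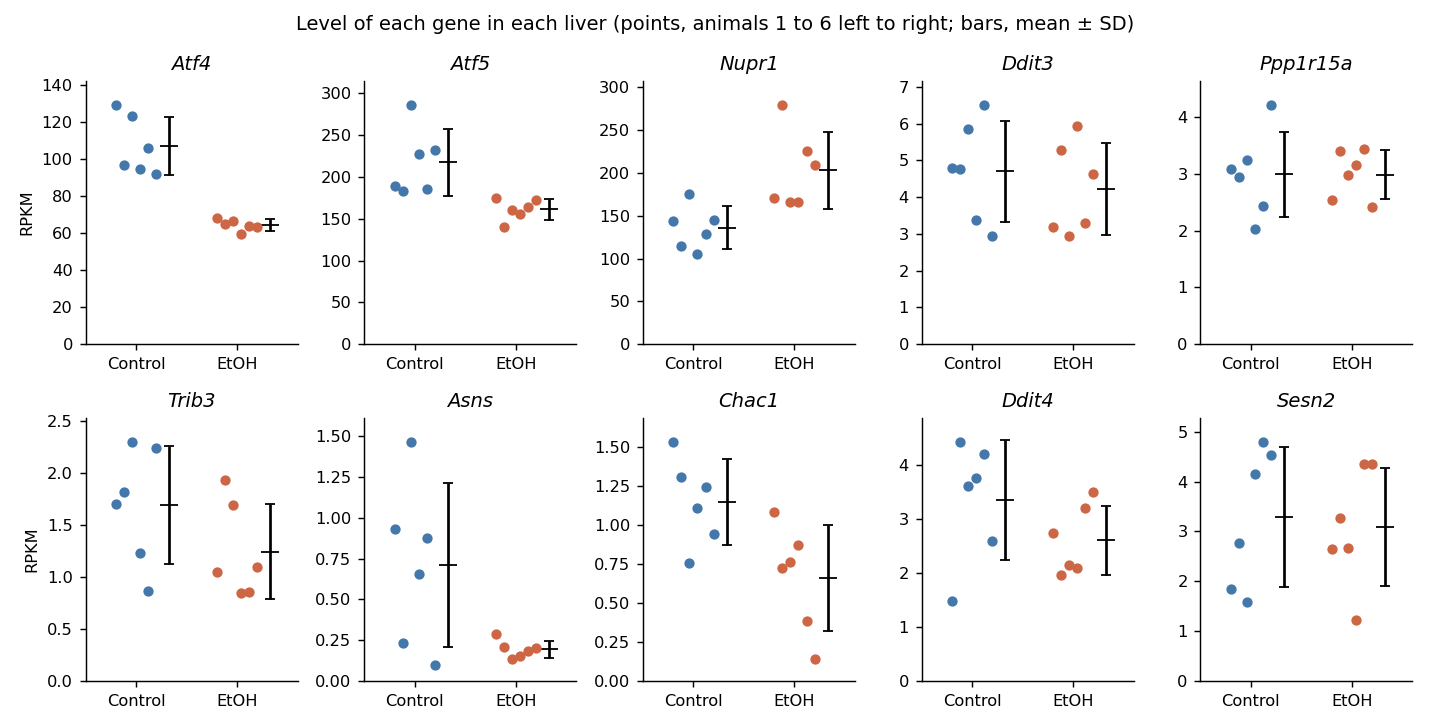
The RPKM of each of the 10 genes is shown for each control and EtOH liver as points, animals 1 to 6 from left to right within a group, with a bar for the mean ± SD (n = 6). For Atf4 and Atf5 every EtOH liver is below every control liver, for Nupr1 only control animal 3 reaches the EtOH range, and the other 7 panels overlap.

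RPKM is scaled to transcript length, so the levels can be set in order. In control livers the order of mean RPKM was Atf5, Nupr1, Atf4, Ddit3, Ddit4, Sesn2, Ppp1r15a, Trib3, Chac1 and Asns. Among neighbours, the ranges of the 6 control livers did not overlap between Atf5 and Nupr1 or between Atf4 and Ddit3, while all other neighbours overlapped. Atf5, Nupr1 and Atf4 made a group of high transcripts, from 107 to 217 RPKM, and the 7 other genes lay between 0.709 and 4.70 RPKM. Over both groups Atf5 exceeded Nupr1 in only 7 of the 12 livers, the 6 control livers and EtOH animal 1 (175 against 171 RPKM).

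To see whether the genes varied together from rat to rat, levels were centred on the group means and compared over the 12 livers. Of 45 pairs, 20 had a positive Pearson's r, the median was -0.01 and the range -0.67 to 0.64. By permutation of r within groups 3 pairs had an unadjusted p under 0.05 and 0 had an adjusted p under 0.05, the smallest adjusted p being 0.63. For Spearman's rho 0 pairs had an adjusted p under 0.05, and the smallest was 0.38, for Atf4 and Asns. That pair had a rho of 0.78 (permutation p = 0.0085) and an r of 0.56 (permutation p = 0.16), with Asns on 1 to 11 reads per liver. The lowest r, -0.67, was that of Atf4 and Ddit4 (permutation p = 0.056). For Trib3 and Ppp1r15a, the pair with the highest r, Pearson's r was 0.64 (permutation p = 0.038, adjusted p = 0.63) and Spearman's rho was 0.52 (permutation p = 0.094, adjusted p = 0.60). Without the 2 livers farthest from the median Trib3 level, r was 0.54.

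Over all 12 livers, the transcripts whose levels were most like those of Atf4, among 11078 averaging 1 RPKM or more, were Creb3l1 (Pearson's r = 0.976), Zfand2a (0.940) and Dguok (0.939). These correlations span both groups and are a description. Creb3l1, which encodes a membrane-bound bZIP factor of the endoplasmic reticulum, ranged from 4.72 to 8.07 RPKM in control livers and from 3.10 to 4.17 in EtOH livers. Zfand2a, which encodes a stress-induced zinc finger protein, ranged from 4.09 to 6.67 and from 2.22 to 3.78. Dguok, which encodes mitochondrial deoxyguanosine kinase, ranged from 2.97 to 8.27 in control livers, and this transcript was listed at 0 in all EtOH livers. Since Atf4 itself separated the groups, this choice favours transcripts that do so, and all 3 are also on the study's list of altered genes.

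Upstream of Atf4, the subunits of eIF2, its kinases, the exchange factor eIF2B and the constitutive phosphatase subunit gave 11 tested genes, of which limma called 0. At an unadjusted p under 0.05, 1 was higher and 6 were lower, against 15.5% of all transcripts in either direction. By limma voom on recovered reads 1 was called lower, Eif2s1. The median log2 fold change was -0.21. Eif2s1, the alpha subunit that carries the phosphorylation site, had a mean of 25.7 RPKM in control and 17.7 in EtOH livers (log2 fold change -0.38, SE 0.09, limma adjusted p = 0.052). Its call depended on the setting. Adjusted p-values were 0.031 by limma voom, 0.012 without normalization between livers, 0.023 after median scaling and 0.029 with a minimum mean RPKM of 1. They were 0.0496 with a pseudocount of 0.1 and 0.030 without control animal 6. It was not called with a pseudocount of 1 (0.052), without a mean-variance trend (0.073) or in the pooled test on square-root values (0.080). With a replicate block its adjusted p was 0.12. The other 11 repeats that left out 1 liver did not call it either, with adjusted p-values up to 0.11. Eif2ak1, the heme-regulated kinase and the gene that was higher at an unadjusted p, had means of 23.1 RPKM in both groups. Its log2 fold change was 0.16 after quantile normalization (limma adjusted p = 0.28), 0.092 after median scaling and 0.0017 without normalization. The other matched kinases, Eif2ak3 and Eif2ak4, were among the 6 lower at an unadjusted p, and neither was called. Their log2 fold changes were -0.35 and -1.07 (limma adjusted p = 0.12 and 0.18).

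Genes of amino acid supply and tRNA charging, both known ATF4 target groups, held 6 called genes, all lower in EtOH livers. In the list of amino acid synthesis and transport, 3 of 17 tested genes fell, 0 rose, and the median log2 fold change was -0.19. Of all transcripts 1.29% were called lower, and of those averaging 1 RPKM or more 4.47% were called in either direction. Psat1, the aminotransferase of serine synthesis, was between 4.02 and 9.09 RPKM in control livers and between 0.728 and 3.00 in EtOH livers, without overlap, and fell by 1.39 on the log2 scale (SE 0.25, limma adjusted p = 0.016). Shmt2, the mitochondrial serine hydroxymethyltransferase, was between 72.8 and 105 RPKM and between 59.2 and 66.2, also without overlap (log2 fold change -0.28, SE 0.05, limma adjusted p = 0.013, and -0.45 without normalization). Slc3a2, the heavy chain of several amino acid transporters, had means of 24.9 and 15.7 RPKM (log2 fold change -0.48, limma adjusted p = 0.046), and was called only without control animal 6 or EtOH animal 1 among the 12 repeats that left out 1 liver, with adjusted p-values up to 0.098. It was not called without a mean-variance trend (adjusted p = 0.063) or in the pooled test on square-root values (0.080). Gpt2, the mitochondrial alanine aminotransferase, had a log2 fold change of 0.47 (limma adjusted p = 0.12).

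Among the aminoacyl-tRNA synthetases, 3 of 12 tested genes fell, 0 rose and the median log2 fold change was -0.39, with 11 of 12 below 0. The share called over all transcripts was 1.29% lower, and 4.47% in either direction among those averaging 1 RPKM or more. At an unadjusted p under 0.05, 10 of the 12 were lower, against 15.5% of all transcripts in either direction. Aars, for alanine, had means of 74.2 and 50.9 RPKM (log2 fold change -0.37, SE 0.04, limma adjusted p = 0.0010). Mars, for methionine, had means of 29.6 and 20.5 RPKM (log2 fold change -0.37, limma adjusted p = 0.0026). Yars, for tyrosine, ranged from 17.7 to 23.6 RPKM in control and from 8.51 to 14.1 in EtOH livers (log2 fold change -0.81, SE 0.11, limma adjusted p = 0.0039). Eprs, for glutamate and proline, was the gene above 0, at 0.11 (limma adjusted p = 0.54), and was at -0.061 without normalization between livers. Psat1, Shmt2, Aars, Mars, Yars and Eif2s1 are among the genes the study itself listed as altered in these livers, so these counts are not independent evidence of their direction.

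**Figure D4:**
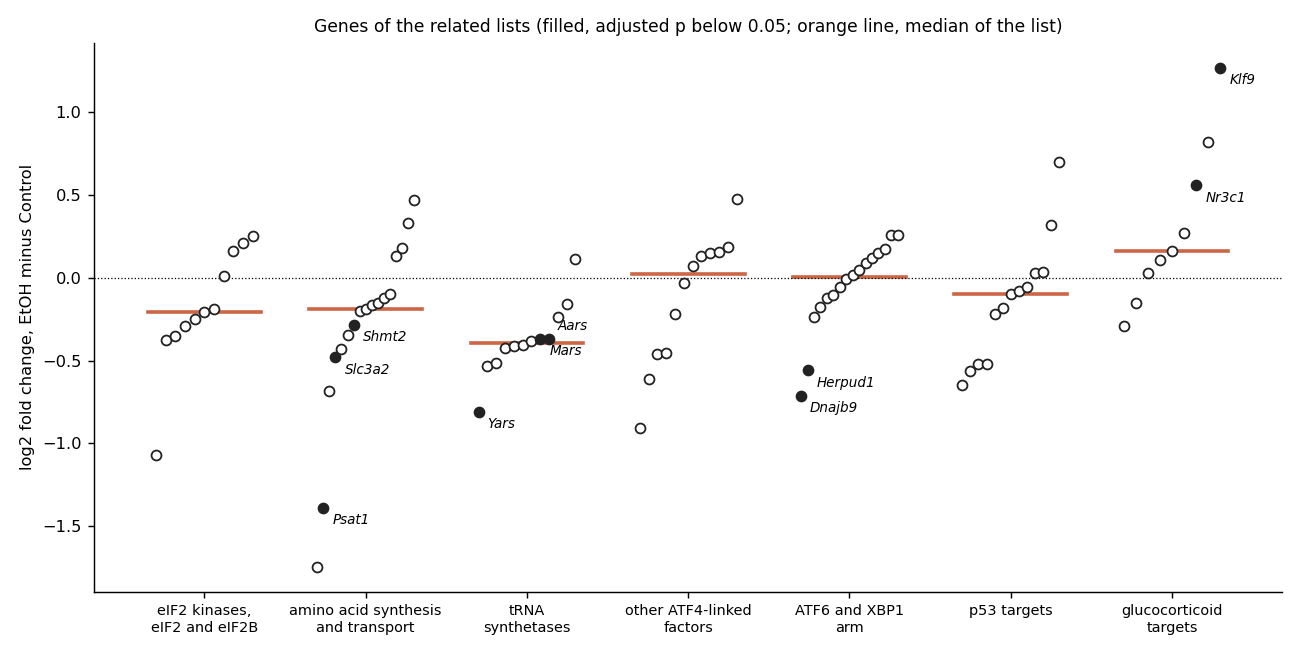
Each point is the log2 fold change, EtOH minus control, of 1 gene in 7 related lists, filled where the limma adjusted p is under 0.05, with an orange line at the median of each list. The median is -0.39 for the tRNA synthetases and 0.0072 for the ATF6 and XBP1 arm.

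Other regulators and secreted factors tied to ATF4, such as Atf3, Fgf21 and Gdf15, gave 12 tested genes with a median log2 fold change of 0.02. Both limma and limma voom called 0 of them. At an unadjusted p under 0.05, 2 were higher and 3 lower, against 15.5% of all transcripts in either direction. The smallest p-values in each direction were those of Eif4ebp1 and Vldlr. Eif4ebp1, which encodes the translation repressor 4E-BP1, had a log2 fold change of -0.45 (limma adjusted p = 0.098). Its adjusted p was 0.039 without normalization between livers and 0.043 without EtOH animal 5. In 8 other settings it was 0.053 to 0.17, and up to 0.19 when another liver was left out. Vldlr, the very low density lipoprotein receptor, was at 0.48 (limma adjusted p = 0.15), and at 1.13 with a pseudocount of 0.1. Its means were 0.093 RPKM in control and 0.37 in EtOH livers, on 39 reads over all 12 livers.

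The ATF6 and XBP1 arm of the unfolded protein response answers to endoplasmic reticulum stress beside ATF4. Of its 16 tested genes 2 were lower and 0 higher, against 1.29% and 1.13% of all transcripts. The median log2 fold change was 0.0072. Dnajb9, a co-chaperone of BiP, had means of 35.6 and 19.2 RPKM (log2 fold change -0.71, limma adjusted p = 0.034), and Herpud1, a part of the degradation machinery of the endoplasmic reticulum, had means of 92.2 and 56.1 (log2 fold change -0.56, adjusted p = 0.042). Dnajb9 was called in 4 and Herpud1 in 3 of the 12 repeats that left out 1 liver, with adjusted p-values up to 0.077 and 0.095. Dnajb9 kept its call without control animal 1 or 6 or EtOH animal 1 or 4, and Herpud1 without control animal 5 or 6 or EtOH animal 6. In the pooled test on square-root values neither was called (adjusted p = 0.072 and 0.088), and without a mean-variance trend Herpud1 was not (0.062). The gene with the smallest p among those above 0 was Ern1, the sensor IRE1 (log2 fold change 0.26, limma adjusted p = 0.25, and 0.15 without normalization).

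Sesn2 and Ddit4 also answer to p53 and, for Ddit4, to glucocorticoids, so those targets were listed too. Of 13 tested p53 targets both limma and limma voom called 0, 3 were lower and 0 higher at an unadjusted p under 0.05, and the median log2 fold change was -0.10. Of all transcripts 15.5% had such an unadjusted p in either direction. Phlda3, an inhibitor of AKT, did not overlap between groups (log2 fold change -0.65, limma adjusted p = 0.059), as was so for 3.10% of all transcripts. It was called without normalization (adjusted p = 0.020), after median scaling (0.047), with a minimum mean RPKM of 1 (0.028) and without control animal 5 (0.040). It was not called with a pseudocount of 0.1 (0.055) or 1 (0.062) or without a mean-variance trend (0.069). The pooled test on square-root values (0.11) and a replicate block (0.14) did not call it. In the other 11 repeats that left out 1 liver it was not called, with adjusted p-values up to 0.12. Trp53inp1 was at 0.32 (adjusted p = 0.49), and at 0.15 without control animal 3. The glucocorticoid list held the receptor gene Nr3c1 beside targets. Of its 9 tested genes 2 rose, 0 fell and the median was 0.16, against 1.13% of all transcripts called higher and 1.29% lower. Klf9 and Nr3c1 were the 2 called, and the other 7 were not, so Klf9 was the only target called. Klf9, a transcription factor induced by glucocorticoids, ranged from 6.03 to 12.9 RPKM in control and from 18.5 to 26.1 in EtOH livers (log2 fold change 1.27, SE 0.17, limma adjusted p = 0.0034), and is also on the study's list of altered genes. Nr3c1, the glucocorticoid receptor itself, had means of 18.8 and 25.2 RPKM (log2 fold change 0.56, limma adjusted p = 0.016), and Dusp1, a phosphatase of MAP kinases, was at -0.29 (adjusted p = 0.46), and at -0.46 without normalization.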

How the data were processed

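Poly(A) RNA of 12 livers, 6 per group, was sequenced in 101-nucleotide paired-end reads in a single lane. The authors mapped reads with CLCbio Genomics Workbench and deposited RPKM per transcript and liver. Positions are those of their table, whose genome build was not given in the sources used here. Their own fold changes, test statistics, p-values and FDR stand in the same file and were not used.

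For transcripts above 0 in at least 1 liver, log2(RPKM + 0.5) was quantile normalized and compared by limma 3.58.1 (R 4.3.3) with a mean-variance trend, two-sided, adjusted by Benjamini-Hochberg, threshold 0.05. Whole reads were recovered from the RPKM steps (within 0.01 of a read) for 21718 of 21718 transcripts. The smallest whole numbers that matched were taken. The 2052 transcripts above 0 in a single liver thus received 1 read whatever their RPKM, and for them recovery is no check of the reads. limma voom on the recovered reads of all 21718 transcripts, chosen after seeing the data, called 524 transcripts, against 526. These reads give the depth of each value. Fold changes on this scale understate those of genes near 0.5 RPKM. Exact permutation tests covered 924 regroupings of 6 against 6, with a smallest p of 0.00216, and correlations used 100000 permutations. Python 3.11.15 with pandas 2.3.3, scipy 1.17.1 and numpy 2.4.6 did the rest. The fits were tested on simulated data.

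The members and lists were chosen with earlier results of these data known. All 10 members, every called gene of a list, each list's smallest p in either direction, and the 3 transcripts most like Atf4 are named. Not matched by name, and not analysed here, were Eif2ak2, Eif2b3, Impact, Sqstm1, Bbc3, Pdia6, Manf, Xbp1 and Canx. Slc7a3 and Pmaip1 were at 0 in all livers. Each library is a separate rat. Pairs of livers within a group differed beyond sampling noise (chi-square per transcript 5.12 to 12.8 over 30 pairs). Alternatives were pseudocounts of 0.1 and 1, no normalization, median scaling, a minimum mean RPKM of 1, no trend, summed transcripts, a pooled test on square-root values, a replicate block and each liver left out.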

Additional observations from a re-analysis of the deposited data

How the results depend on the processing

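The lower level of Atf4 kept its direction and its call in all 22 alternatives, with log2 fold changes from -0.60 to -0.50 and adjusted p-values from 0.0038 to 0.016 when a liver was left out. The number of transcripts called, 526, became 860 with a minimum mean RPKM of 1, 322 in the pooled test on square-root values, and 212 to 656 when a liver was left out. It was 275 and 285 without control animals 2 and 4, and 212, 252, 295 and 298 without EtOH animals 2, 3, 4 and 5. The count of the 10 genes called higher, 1, was 0 without normalization between livers and 0 in the square-root test, and 0 to 1 when a liver was left out. The count called lower, 1, was 2 without normalization, where Atf5 was added, and 1 to 2 when a liver was left out. Directions that turned were those of Ddit3 (0.076 with all transcripts summed, -0.17 to 0.012 without a liver), Sesn2 (0.014 after median scaling, -0.16 to 0.17 without a liver), Ppp1r15a (-0.031 to 0.16 without a liver) and Eprs (-0.061 without normalization). Causes were not tested.

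Same-numbered animals of the groups did not deviate together (correlations from -0.067 to 0.032), and 1 of 6 animals correlated best with its own number, so the numbers were not taken to pair the rats. With the animal number as a replicate block, 113 transcripts were called, 0 of the 10 genes higher (Nupr1 0.71, adjusted p = 0.10) and 1 lower. Depth limits Asns, Chac1, Trib3 and Sesn2, with at most 16 reads per liver.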
